A study of Mus musculus with 4 samples.

Results

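The matrix proteases and their inhibitors were taken as the protein-coding genes named Mmp, Adamts, Adamtsl or Timp with a number. They were 51 of the 21887 protein-coding genes in the gene table: 23 Mmp, 19 Adamts, 5 Adamtsl and 4 Timp genes. Each gene was given a window of its body plus 20 kb on either side, and peaks from different libraries were joined into 1 region wherever they overlapped by 1 bp or more. Of 90239 regions in all, 320 touched a member's window.

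Accessible chromatin had been profiled by ATAC-seq, a method that lets a transposase insert sequencing adapters into open DNA, in 4 bulk libraries of a mouse embryonic fibroblast line. The line, iMGT-Myh6-eGFP-MEF, carries doxycycline-inducible Mef2c, Gata4 and Tbx5 (MGT), the transcription factors that drive fibroblasts towards cardiomyocytes, and a reporter named for the cardiac gene Myh6. In 2 libraries the cells had received a control siRNA (siControl) and in 2 an siRNA against Chst7 (siChst7), a sulfotransferase of chondroitin sulfate chains. Doxycycline was added to all of them on the day after transfection, so both groups overexpressed MGT, and all were collected at day 1 of induction. No library without MGT was analysed here, the labels do not say whether the line is 1 clone, and peak lists cannot show whether the Chst7 transcript fell. The labels call the replicates biological without saying whether they were separate cultures, so the spread given here is that between these libraries only.

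Matrix metalloproteinases (the Mmp genes) are zinc enzymes, secreted or held in the membrane, that cut collagens, gelatin, proteoglycans and other matrix proteins. ADAMTS enzymes are secreted relatives with thrombospondin repeats that cleave aggrecan and versican or trim procollagens, and the ADAMTS-like proteins share the repeats without the protease domain. The tissue inhibitors of metalloproteinases (the Timp genes) bind and block the active enzymes, and fibroblasts are a known source of many of these proteins.

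A peak at the gene start was one within 1 kb of a transcription start listed in RefSeq's promoter table for GRCm38.p6, the assembly of mm10. That table held 36 of the 51 members, and for the other 15 a peak within 1 kb of either end of the gene was counted, since no strand was at hand. Promoters are shown first for 8 of the 10 secreted Mmp genes that lie side by side on chromosome 9. These 8 were picked because they shared a layout and yet differed in accessibility. Each line gives 150 bases of RefSeq sequence, read 5′ to 3′ in the direction of the gene and reaching past the listed start, with the AP-1 motif (TGANTCA) and the TATA box (TATAAA) in capitals. The listed promoters of Mmp8 and Mmp27, and the other listed starts of Mmp7 and Mmp12, lacked the AP-1 motif and are not shown. A match is a description of the letters and not a bound site.
Mmp10 (a stromelysin), chr9:7502222-7502371, plus strand: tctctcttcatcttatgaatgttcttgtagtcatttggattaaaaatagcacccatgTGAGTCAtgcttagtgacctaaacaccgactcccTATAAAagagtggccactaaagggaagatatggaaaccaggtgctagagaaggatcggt
Mmp3 (a stromelysin), chr9:7445702-7445851, plus strand: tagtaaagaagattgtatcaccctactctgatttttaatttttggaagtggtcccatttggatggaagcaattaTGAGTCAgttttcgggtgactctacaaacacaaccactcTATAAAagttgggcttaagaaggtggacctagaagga
Mmp1a (a collagenase), chr9:7464021-7464170, plus strand: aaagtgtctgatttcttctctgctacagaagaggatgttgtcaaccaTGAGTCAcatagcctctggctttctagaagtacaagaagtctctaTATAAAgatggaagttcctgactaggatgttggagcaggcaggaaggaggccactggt
Mmp1b (a collagenase), chr9:7387997-7388146, minus strand: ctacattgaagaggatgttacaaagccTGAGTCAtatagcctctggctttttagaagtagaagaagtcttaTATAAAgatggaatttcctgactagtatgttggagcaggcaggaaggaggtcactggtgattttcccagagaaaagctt
Mmp13 (a collagenase), chr9:7272394-7272543, plus strand: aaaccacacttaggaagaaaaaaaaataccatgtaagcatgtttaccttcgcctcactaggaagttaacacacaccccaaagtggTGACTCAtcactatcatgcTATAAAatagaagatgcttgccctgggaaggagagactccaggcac
Mmp12 (macrophage elastase, second listed start), chr9:7347254-7347403, plus strand: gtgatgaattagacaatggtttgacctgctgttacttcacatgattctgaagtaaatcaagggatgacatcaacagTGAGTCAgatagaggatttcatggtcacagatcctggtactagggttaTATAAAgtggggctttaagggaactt
Mmp7 (matrilysin), chr9:7691970-7692119, plus strand: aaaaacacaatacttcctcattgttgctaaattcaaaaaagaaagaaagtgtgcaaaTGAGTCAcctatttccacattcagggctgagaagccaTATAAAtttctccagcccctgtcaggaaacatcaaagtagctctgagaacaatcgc
Mmp20 (enamelysin), chr9:7628111-7628260, plus strand: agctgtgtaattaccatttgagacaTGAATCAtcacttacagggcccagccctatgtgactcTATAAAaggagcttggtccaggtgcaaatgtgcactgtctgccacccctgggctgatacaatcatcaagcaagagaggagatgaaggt

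In these 8 promoters the AP-1 motif began between 35 and 95 bases before the start. The TATA box followed it in each, beginning 7 to 58 bases before the start except at Mmp12, where it lay past the start. Of the 8, only Mmp10 had a start peak in all 4 libraries, and its fold enrichment in siControl was 9.26 and 11, and in siChst7 it was 12.6 and 5.64. Fold enrichment is the authors' ratio of the signal at a peak's summit to the background around it in the same library, and here, as for the −log10 q, it only describes and ranks peaks. The siChst7 libraries lay at the top and the bottom at Mmp10, so the groups overlapped. Relative to the start, the summits of its 4 peaks lay at −59 and −62 bases in siControl and at −72 and −68 in siChst7, and the AP-1 motif began 63 bases before it. The same promoter held the MEF2 consensus (YTAWWWWTAR), which began at −81 relative to the start. Which of these letters, if any, was bound was not tested.

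**Figure D1:**
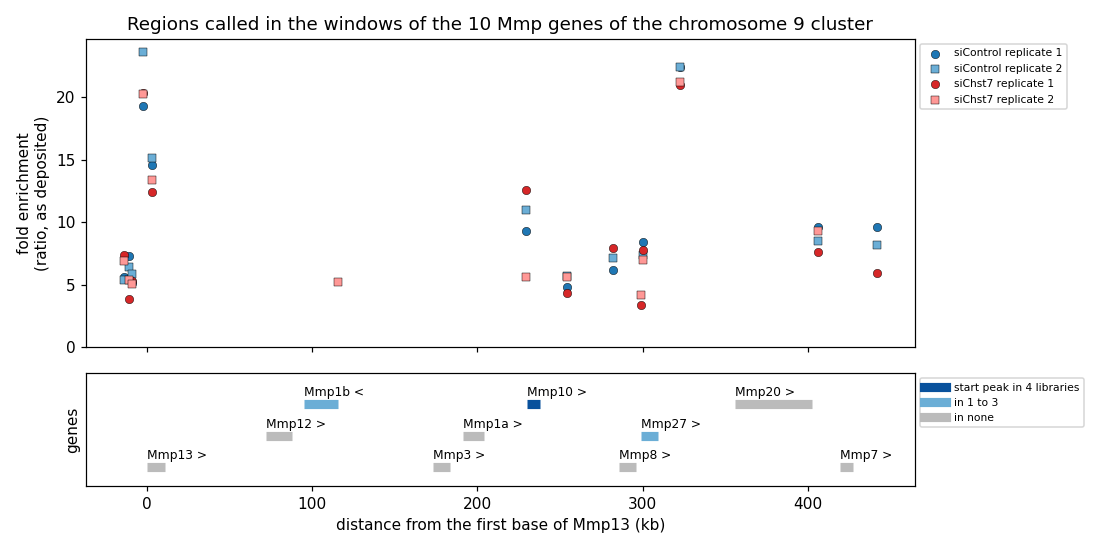
The upper panel plots the deposited fold enrichment of every region called in the windows of the 10 neighbouring Mmp genes of chromosome 9 against the distance in kb from the first base of Mmp13, with 1 point per library that called it. The lower panel shows the genes, coloured by the number of libraries with a start peak; an arrowhead gives the direction of each gene, and the highest points, from 19.3 upwards, lie beside Mmp13 and past the end of Mmp27 and not at a gene start.

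The 10 genes of this cluster spanned 427 kb (chr9:7272514-7699585). Their windows held 14 regions, of which 10 were called in all 4 libraries. Start peaks were absent from every library at 7 of the genes, among them the collagenases Mmp8 and Mmp13 and the macrophage elastase Mmp12. Mmp12, Mmp3 and Mmp1a were the only members whose whole windows held no region. At Mmp1b, a rodent collagenase, the start peak was called in siChst7 replicate 2 alone, with a fold enrichment of 5.24.

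Strong regions in the cluster lay away from the starts. The region chr9:7270026-7270643, which ended 1.87 kb upstream of Mmp13, had fold enrichments of 19.3 and 23.6 in siControl and 20.4 and 20.2 in siChst7. A region in the body of Mmp13 reached 14.6 and 15.1 in siControl and 12.4 and 13.4 in siChst7. Both siChst7 libraries were the lower ones at the body region, whereas the values overlapped at the upstream one. Past the end of Mmp27, by 13.1 kb, chr9:7594939-7595847 had 22.4 in each siControl library and 20.9 and 21.2 in siChst7, the highest mean rank of any region in the members' windows.

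The AP-1 motif, searched on both strands of the 300 bp promoters (250 bases before to 50 after the start), was present in 8 of the 39 promoters listed for members (20.5%). Among all 21263 listed promoters the share was 6.99%. All 8 belonged to the chromosome 9 cluster, which had 12 listed promoters of 10 genes, so they are neighbours within 1 gene cluster. The TATA box stood in 30.8% of member promoters and 12.6% of all, and the GC box (GGGCGG) in 56.4% and 46.2%. Most promoters with a TATA box also belonged to this cluster. Outside it the TATA box was found only at Adamts1, Adamtsl2 and Mmp21. The GATA motif (AGATAA) was found in 7.69% of member promoters against 9.65% of all, the TEAD motif (GGAATG) in 5.13% against 13.6%, and the MEF2 consensus in 2.56% against 2.74%. Mmp10 had the only member promoter with the MEF2 consensus. Over the whole promoter table, AP-1 letters were in 5.07% of promoters whose gene had a start peak in all 4 libraries. The share was 9.64% where the gene had none.

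Most of the remaining members had promoters of another kind, and 3 are shown because the results below turn on them, with the GC box in capitals on either strand (GGGCGG or CCGCCC). Timp1 and Timp2 encode secreted inhibitors, and Adamts2 encodes a procollagen N-proteinase, which removes the amino-terminal propeptide of fibrillar collagens.
Timp1, chrX:20870046-20870195, plus strand: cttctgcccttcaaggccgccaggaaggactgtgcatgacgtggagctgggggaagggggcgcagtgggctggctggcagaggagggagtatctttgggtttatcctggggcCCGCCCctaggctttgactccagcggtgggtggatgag
Timp2, chr11:118355382-118355531, minus strand: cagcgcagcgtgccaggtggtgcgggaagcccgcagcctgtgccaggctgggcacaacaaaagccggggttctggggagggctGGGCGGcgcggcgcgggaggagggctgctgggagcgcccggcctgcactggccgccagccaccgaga
Adamts2, chr11:50601965-50602114, plus strand: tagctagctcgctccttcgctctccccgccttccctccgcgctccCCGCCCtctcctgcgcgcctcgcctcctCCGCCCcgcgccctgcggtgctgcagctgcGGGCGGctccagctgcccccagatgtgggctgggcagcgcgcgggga

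The inhibitors Timp1, Timp2 and Timp3 had a start peak in all 4 libraries and Timp4 in none. Timp2, which also takes part in activating pro-MMP2, had start fold enrichments of 10.6 and 11 in siControl and 9.16 and 9.69 in siChst7. At Timp1 they were 6.72 and 7.71 in siControl and 6.61 and 6.13 in siChst7. Both siChst7 libraries were below both siControl libraries at these 2 starts, by little at Timp1. The summits of the Timp2 peaks lay 4, 4, 5 and 9 bases past the start, and those of the Timp1 peaks 3 to 47 bases past it.

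Timp3, the inhibitor that stays bound to the matrix, had the lowest start values of the members with a start peak, at 2.62 and 2.46 in siControl and 2.13 and 2.79 in siChst7. The next region of its body, chr10:86301498-86303253, had 8.61 and 8.79 in siControl and 8.30 and 9.13 in siChst7. The groups overlapped at both. Timp4 had 3 regions, all in the flanks, and the 1 called in all 4 libraries lay 19.6 kb from the gene with values of 8.05, 11.3, 10.6 and 11.6 in library order (siControl 1 and 2, siChst7 1 and 2).

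Timp2 held more regions than any other member, 15, of which 11 were called in all 4 libraries. Timp3 held 11, of which 9 were called in all 4. Timp1, Timp3 and Timp4 lie inside the synapsin genes Syn1, Syn3 and Syn2, and 16 of the 31 Timp regions overlapped a synapsin gene, 11 of them in all 4 libraries. Which of the nested genes such a region serves was not tested.

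Among the Mmp genes 0 of the 4 secreted collagenases and 0 of the 2 genes for matrilysin and elastase had a start peak in all 4 libraries, which 53.8% of all protein-coding genes had. Of the stromelysins, 2 of 3 had one, Mmp10 and Mmp11. Of the gelatinases, which cut denatured collagen, Mmp2 had one and Mmp9 did not. At the end of Mmp2 nearest to it, the region chr8:92827296-92827715 had 8.29 and 9.28 in siControl and 12.1 and 7.65 in siChst7, so that the siChst7 libraries were again the highest and the lowest. A region 8.71 kb away, chr8:92818073-92818578, was stronger in every library, at 19.7, 20.5, 20.0 and 19.4 in library order. Mmp9 held 9 regions, 5 of them in all 4 libraries, none within 1 kb of a gene end.

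Of the membrane-type enzymes 4 of 6 had a start peak in all 4 libraries: Mmp14, Mmp15, Mmp16 and Mmp17. Mmp14, the main activator of pro-MMP2 on the cell surface, had low start values of 4.19 and 4.65 in siControl and 4.23 and 3.81 in siChst7. A region 6.34 kb past its end reached 13.9, 17.8, 14.3 and 13.4 in library order. At Mmp16 and Mmp17, judged by gene ends, the values ranged from 9.72 to 13.3 and from 11.2 to 13.8. Mmp24 and Mmp25 had no start peak, although Mmp24 held 10 regions, 6 of them in all 4 libraries. Mmp28 held the most regions of the Mmp genes, 12, with 10 in all 4 libraries. Among the other enzymes, Mmp19 had its strongest region 11 kb away (chr10:128779128-128779891), at 18.7, 22.3, 19.9 and 20.3 in library order. A flank region of Mmp23, at the start of Mib2 (chr4:155668806-155669821), had 19 and 18 in siControl and 16.1 and 16.4 in siChst7. The groups overlapped at Mmp19, and both siChst7 values were the lower ones at Mmp23.

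**Figure D2:**
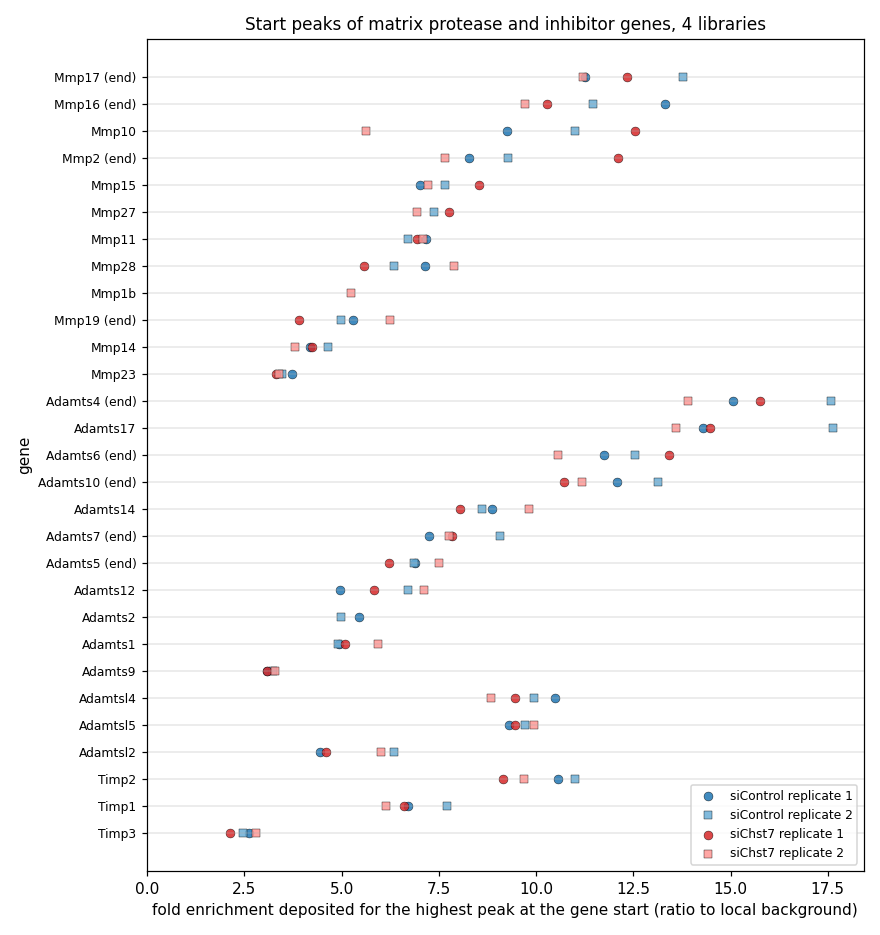
Each row is a member with a start peak in at least 1 library, and each point is the deposited fold enrichment (horizontal axis, ratio to local background) of its highest start peak in 1 library; "(end)" marks genes judged by either gene end. Values reach from 2.13 at Timp3 to 17.6 at Adamts4 and Adamts17, the 4 libraries of a gene mostly lie close together, and Adamts2 has points from the siControl libraries only.

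Of the 7 aggrecanase and versicanase genes, 4 had a start peak in all 4 libraries. Adamts4, an aggrecanase, had 15.1 and 17.6 in siControl and 15.7 and 13.9 in siChst7 at a gene end (chr1:171262464-171263320). Adamts5, the other main aggrecanase, had 6.88, 6.87, 6.21 and 7.51 in library order. The versican-cleaving Adamts1 had 4.92, 4.91, 5.08 and 5.92, and Adamts9 had 3.07, 3.24, 3.08 and 3.28. The groups overlapped at Adamts4, Adamts5 and Adamts9, and at Adamts1 both siChst7 values were the higher ones. Adamts8, Adamts15 and Adamts20 had no start peak, but a region 1.88 kb from Adamts15 (chr9:30896540-30897273) reached 16.8, 17.7, 16.9 and 13.9.

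Among the other Adamts genes, Adamts17 had 14.3 and 17.6 in siControl and 14.5 and 13.6 in siChst7 at its start. Adamts6 and Adamts10, judged by gene ends, lay between 10.6 and 13.4. Adamts12 held 13 regions, 6 of them in all 4 libraries, and had start values of 4.95, 6.71, 5.83 and 7.11 in library order, with overlapping groups. Adamts6 also held 2 of the 10 regions with the highest mean rank, and the stronger of them, in its body at chr13:104460183-104460855, had 24.7, 20.0, 22.2 and 22 in library order. Adamts16 had 14 regions, 10 of them in all 4 libraries, and none at a gene end. The 10 regions of highest mean rank over all members comprised 0 at a member's start, 2 in gene bodies and 8 in flanks, and 3 of the 10 lay at the start of another gene (Mib2, Taf15 and Rexo4).

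Adamtsl2, Adamtsl4 and Adamtsl5, whose products bind fibrillin microfibrils or other matrix proteins, had start peaks in all 4 libraries. Their values in library order were 4.46, 6.35, 4.61 and 6.01 for Adamtsl2, 10.5, 9.95, 9.45 and 8.85 for Adamtsl4, and 9.31, 9.71, 9.46 and 9.93 for Adamtsl5. In fold enrichment both siChst7 libraries were lower only at Adamtsl4. Ranked as percentiles among the regions called in all 4 libraries, Adamtsl5 stood at 48.9 and 51.2 in siControl and at 52.6 and 58.3 in siChst7. By rank both siChst7 libraries were thus the higher ones at Adamtsl5, and they stayed the lower ones at Adamtsl4. Adamtsl1, the longest member gene, held 7 regions in its body and none that was called in all 4 libraries.

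In total 26 of the 51 members (51.0%) had a start peak in all 4 libraries, against a background of 53.8% over all protein-coding genes. The count was 17 of 36 with a listed start, where the background was 54.1%, and 9 of 15 judged by either end, where it was 52.6%. By family it was 10 of 23 Mmp, 10 of 19 Adamts, 3 of 5 Adamtsl and 3 of 4 Timp genes. The share over members was near the background and is no result about them. Another 3 members had a start peak in some libraries (Mmp1b, Mmp27 and Adamts2) and 22 in none, of which 17 held a region called in all 4 libraries elsewhere in their windows.

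**Figure D3:**
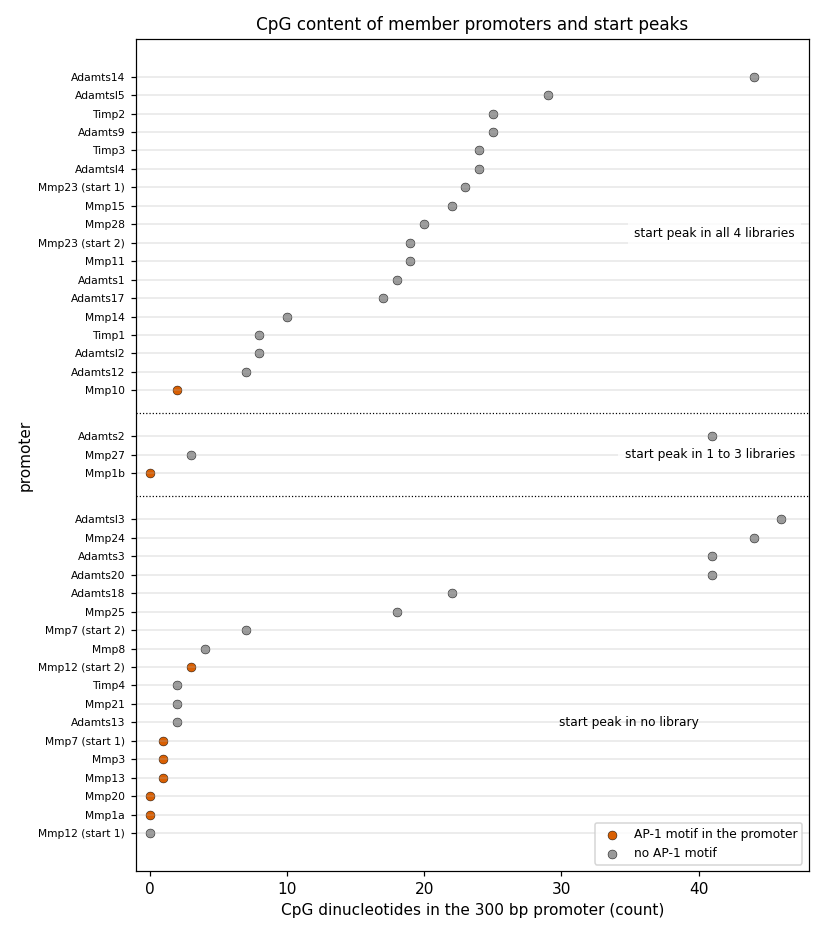
Each row is a listed promoter of a member, placed by the number of CpG dinucleotides in its 300 bases (horizontal axis) and grouped by the number of libraries with a start peak of that gene; orange points hold the AP-1 motif. Promoters of the genes open in all 4 libraries mostly have 7 or more CpG, Mmp10 with 2 being the exception, and the group with no start peak holds both CpG-poor promoters and 4 with over 40.

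Start peaks followed the CpG content of the promoters in part. A start peak was counted per gene, at any of its listed starts. A gene with several listed promoters therefore gave the same call to each of them. Member promoters with a start peak in all 4 libraries had a median of 19.5 CpG in 300 bases (n = 18 promoters), and those with none had a median of 2.5 (n = 18). Over all genes the medians were 21 and 3. Of 14 member promoters with at most 4 CpG, 1 (Mmp10) had a start peak in all 4 libraries, and of the 6035 such promoters of all genes 16.6% did. At the CpG-rich end the members differed: of the 6 with at least 40 CpG, only Adamts14 had a start peak in all 4 libraries, against 84.5% of the 1081 such promoters of all genes. The others were Adamts2 (41 CpG, siControl only) and, with no start peak in any library, Adamtsl3 (46), Mmp24 (44), Adamts3 (41) and Adamts20 (41), and for all genes the share with none was 12.2%. At Adamts14 the summits lay 1138 to 1270 bases past the start, and its peaks counted because they reached within 1 kb of it. These 6 promoters were singled out after their values were seen, and no test was made on them.

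Calls were then compared over whole windows. Of the 320 regions 207 (64.7%) were called in all 4 libraries, against 62.0% of all regions. The shares were 67.0% for Mmp (75 of 112), 62.1% for Adamts (82 of 132), 62.2% for Adamtsl (28 of 45) and 71.0% for Timp (22 of 31), all close to the background. Regions at member starts were called in all 4 libraries in 30 of 36 cases, those in bodies in 78 of 138 and those in flanks in 99 of 146. In the flanks 25 regions lay at the start of another gene, and leaving out every region at the start of a gene that is no member left 180 of 291 in all 4 libraries. Shares by place, or with such regions left out, were not computed over all regions. These counts therefore have no background and are no result about the members.

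The families differed in how densely their windows were filled. The median number of regions per gene was 5 for Mmp, 6 for Adamts, 8 for Adamtsl and 7 for Timp, against 4 over all protein-coding genes. Per 100 kb of window the medians were 9.68 for Mmp, 4.89 for Adamts, 8.61 for Adamtsl and 9.31 for Timp, against 6.50 over all genes. Pooled over a family's windows the densities were 7.48, 4.33, 3.12 and 11.2, against 5.87, so that Adamtsl, with the long and sparsely filled Adamtsl1, was the lowest family by this count. Adamts windows were the longest, with a median of 154 kb against 52.7 kb for Mmp, and 77 of the 132 Adamts regions lay in gene bodies against 27 of 112 for Mmp.

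Peak strength was given by the medians over regions called in all 4 libraries. Fold enrichment had a median of 8.29, 8.34, 8.04 and 7.82 over the members in library order, below the 9.44, 9.59, 9.18 and 8.96 of all regions in every library. By family the medians were 8.29, 8.29, 8.04 and 7.84 for Mmp and 8.55, 8.43, 8.0 and 8.30 for Adamts. They were 7.48, 8.17, 7.77 and 7.07 for Adamtsl and 8.35, 8.82, 8.33 and 7.48 for Timp. Adamtsl had the lowest median in every library, while the order of the other families changed from library to library.

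The −log10 q, which also grows with the number of reads under a peak, ordered the families otherwise. Its median in library order was 46.9, 61.4, 56.5 and 36.6 for Timp and 44.2, 48.8, 50.1 and 34.5 for Adamtsl. For Adamts it was 35.5, 34.7, 32.7 and 24.6, and for Mmp 33.6, 32.4, 31.4 and 22.9. Timp and Adamtsl lay above Adamts and Mmp in all 4 libraries, over 22 and 28 regions. Over all members it was 37.7, 37.6, 35.5 and 27.5, and over all regions 37.7, 37.0, 37.2 and 28.6. The lowest value of each set was that of siChst7 replicate 2, the library with the shortest list.

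**Figure D4:**
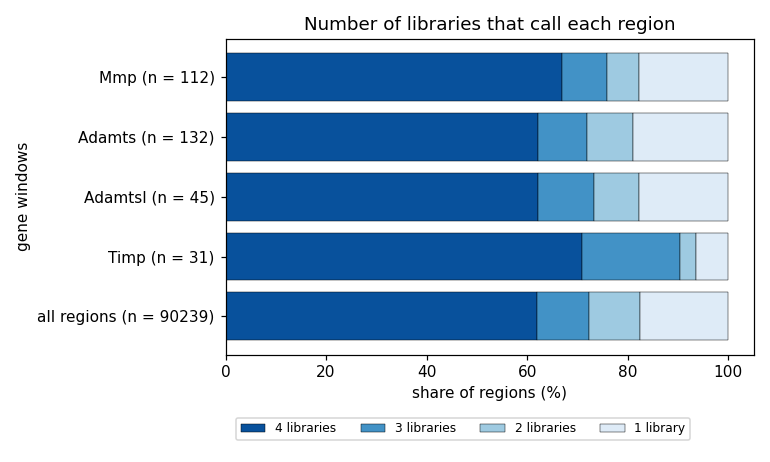
Each bar divides the regions in the windows of 1 family, or all regions, by the number of libraries that called them (horizontal axis, share of regions in %; n is the number of regions). The share called in all 4 libraries is 67.0% for Mmp, 62.1% for Adamts, 62.2% for Adamtsl and 71.0% for Timp, beside 62.0% for all regions.

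The libraries held 73902 and 75696 peaks with siControl and 74402 and 66165 with siChst7. The background density computed from the peaks' own values, relative to siControl replicate 1, was 0.963 in the other siControl library and 1.02 and 0.757 in siChst7 replicates 1 and 2. Of the 34 member regions called in 3 libraries, 18 lacked siChst7 replicate 2 (52.9%, and 51.0% of all such regions), and the part of depth in this was not tested. Among marker genes, start peaks in all 4 libraries stood at 10 of 14 fibroblast genes, 1 of 10 macrophage and neutrophil genes, 0 of 5 endothelial, 1 of 5 epithelial and 1 of 5 cardiomyocyte genes. The fibroblast genes without one were Col3a1, Lum, Ddr2 and Dcn. Of the 10 macrophage and neutrophil genes 8 had no start peak in any library, among them Ptprc, Lyz2 and Adgre1. The other genes of that list were Spi1, with 8.04, 8.40, 8.56 and 8.47 in library order at a gene end, and Cd68, called in 3 libraries. Taking every protein-coding gene, 53.8% had a start peak in all 4.

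For siControl against siChst7, the members' windows held 264 and 274 peaks with siControl and 270 and 247 with siChst7. As a share of each library's peaks this was 0.358% and 0.362% with siControl (0.360 ± 0.00338%, mean ± SD, n = 2) and 0.363% and 0.374% with siChst7 (0.368 ± 0.00737%, n = 2). Both siChst7 shares were above both siControl shares, by 0.0085 percentage points on average. The exact two-sided permutation test gave p = 0.33, the smallest value that 2 libraries against 2 allow. With the 36 members that have a listed start the difference was −0.00175 percentage points, so its direction depended on which members were counted.

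Calls specific to a group were few. Of the 320 regions 1 was called with siChst7 in both libraries and never with siControl (0.313%), against 1.24% of all regions. The reverse, a call in both libraries of siControl only, held for 5 (1.56%), against 2.84%. Neither share of the members exceeded its background.

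The siChst7-only region, chr9:7571509-7571874, lay just inside Mmp27, a secreted metalloproteinase of the cluster, and in the window of Mmp8. This region was within 1 kb of the listed start of Mmp27, so it was itself a start peak in both siChst7 libraries. Its fold enrichments were 3.33 and 4.15 and its −log10 q 3.88 and 5.42. It was a weak peak, and in lists limited to a −log10 q of at least 5 only 1 library kept it. The adjoining region chr9:7572300-7573377 was called in all 4 libraries, with 8.43 and 7.37 in siControl and 7.77 and 6.94 in siChst7, and the groups overlapped there. Since each library's own peak was measured from the start, the adjoining region also counted as a start peak, in the 3 libraries whose peak reached within 1 kb. The summits of these peaks lay 1479 to 1487 bases past the start.

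Among the siControl-only regions, that of Adamts2 was the only one at a member's start. At chr11:50601730-50602097 it had fold enrichments of 5.44 and 4.98 and a −log10 q of 7.78 and 6.98 in siControl, and the summits lay at −73 and −66 bases relative to the start. No peak was listed there in either siChst7 library. A flank region of Mmp15, which encodes a membrane-type enzyme, had 8.31 and 8.23, with a −log10 q of 17.2 and 16 (chr8:95388972-95389221). A flank region of Mmp28 (epilysin) had 5.40 and 5.43, with a −log10 q of 17.9 and 16.6 (chr11:83466033-83466287). These 3 regions stayed siControl-only with the stricter q, equal list lengths, peaks of at least 200 bp and 200 bp summit windows. The regions in the bodies of Adamts13, the von Willebrand factor protease (3.11 and 3.43), and Adamtsl3 (3.77 and 5.68) did so with summit windows and not under the other 3 settings.

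To compare strength between groups, each region's fold enrichment was turned into a percentile among the 55924 regions called in all 4 libraries. Of the members' 207 such regions, 39 (18.8%) had both siChst7 percentiles above both siControl percentiles, against a background of 19.5%. The reverse held for 46 (22.2%), against 18.4%. The median difference, siChst7 minus siControl, was −0.269 percentile points over the members and 0.0697 over all common regions. Both shares were near the background.

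By family the numbers higher with siChst7 and with siControl were 12 and 17 of 75 for Mmp, 19 and 17 of 82 for Adamts, 6 and 5 of 28 for Adamtsl, and 2 and 7 of 22 for Timp. The largest downward shifts with siChst7 were both in the flanks of Timp3. There chr10:86356752-86357354 stood at percentiles 49.3 and 39.5 in siControl and 26.6 and 8.5 in siChst7, and chr10:86296053-86296599 at 60.0 and 60.5 against 42.5 and 27.2. At both regions siChst7 replicate 2 was the lowest library, well below siChst7 replicate 1. The largest upward shift lay in a flank of Adamts16, chr13:70724223-70725011, at 31.9 and 16.5 in siControl and 53.1 and 59.2 in siChst7, with fold enrichments of 7.41 and 5.70 against 9.52 and 10.0. The next ones upward were in the body of Adamts17 (27.4 points) and a flank of Adamts6 (24.2 points). No test was made on single regions, since the deposited values only rank peaks within a list.

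**Figure D5:**
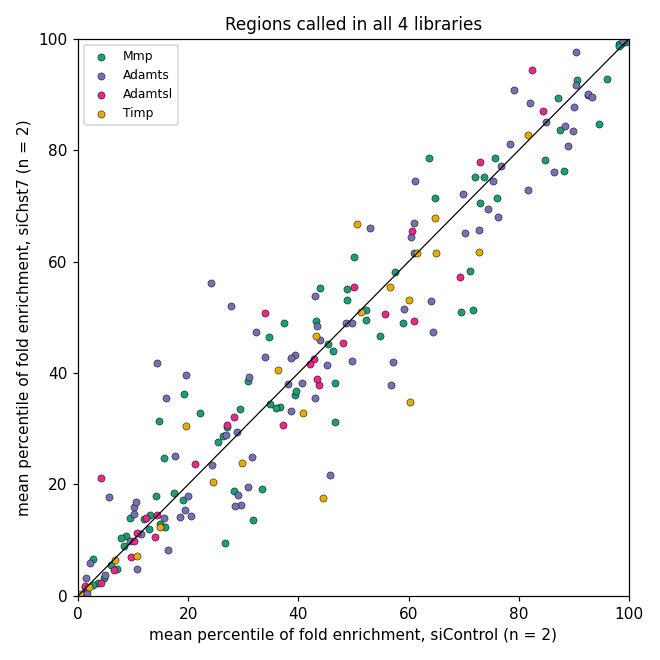
Each point is 1 of the 207 member regions called in all 4 libraries, placed by its mean percentile of fold enrichment in siControl (horizontal axis, n = 2) and in siChst7 (vertical axis, n = 2), with the diagonal marking equal ranks. Points lie along the diagonal, and the Timp3 and Adamts16 flank regions are among those farthest from it.

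Other genes of matrix proteolysis were read in the same way. Of 40 genes (genes of the plasmin system, ADAM sheddases, cathepsins, proprotein convertases and further regulators) 21 had a start peak in all 4 libraries (52.5%, background 53.8%) and 18 in none. Reck, a membrane-bound inhibitor of metalloproteinases, had 7.80, 8.01, 6.67 and 8.40 in library order. Bsg, which induces metalloproteinases in neighbouring cells, had 10.5, 11.3, 10.1 and 10.9. At both the groups overlapped. Ctsl, a lysosomal cathepsin, had the highest start values of the 40, at 19.1, 20.4, 17.3 and 18.4. Plau, Ctsk, Htra1 and Fap had no start peak, and the windows of Tfpi2, A2m, Spock3 and Pcsk5 held no region. Of the 259 regions of these genes 1 was siChst7-only (0.386%, background 1.24%) and 7 were siControl-only (2.70%, background 2.84%).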

How the data were processed

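Each of the 4 libraries came as 1 list of narrow peaks, called per library and not pooled, per the peak names in the deposited files. Build mm10 and the tools HOMER, MACS3, Bowtie, bedtools and SAMtools are listed, with no version, in the submitters' processing notes. Read filters and any shift of cut sites were not given in the sources used here. The deposited score of a peak equals its −log10 q multiplied by 10. For each summit the authors gave the fold enrichment, a ratio of signal to local background, and the −log10 of the p-value and of the q-value, the last at most 0.01. The summit offset is the authors' distance from the peak's start. Read totals cannot be read from peak lists. A relative background density was computed from fold enrichments that repeat in steps among peaks with a −log10 q under 8.

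Peaks on chromosomes 1 to 19, X and Y were used and merged at 1 bp overlap. Gene positions came from a RefSeq table of GRCm38.p6 without strand or exons, so exons, introns and UTRs are not told apart. The merging and calling were tested on simulated peaks. Python 3.11.15, numpy 2.4.6 and pandas 2.3.3 were used. Only the share of peaks in the windows was tested, by an exact permutation test; calls and ranks are counts beside the same over all regions. Alternatives were a stricter q, equal list lengths, a minimum width of 200 bp, 200 bp summit windows, 50% overlap, 5 kb flanks, other start distances, each library left out, and the replicate number as a block.

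The members and lists were chosen with earlier results of these data known, and the roles of the genes were assigned after the files were read. Genes were named by a rule: all Timp genes, the 5 members of each other family with the most regions called in all 4 libraries, those with a group-specific region or none, those of the chromosome 9 cluster, those with 1 of the 10 highest-ranked regions, and others for their start peaks only.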

Additional observations from a re-analysis of the deposited data

How the results depend on the processing

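With 2 libraries a group the exact permutation test could not pass a threshold, and siChst7 replicate 2, the library of lowest background density, had the fewest calls. The difference in the share of peaks was reversed, at −0.00175 percentage points, with only the members that have a listed start, a setting chosen after seeing the data, and it lay between 0.00329 and 0.0137 with each library left out. With the replicate number as a block it was 0.0085 percentage points (exact sign-flip p = 0.5); the deviations of same-numbered libraries correlated at r = 0.0118 over 55924 regions, and the numbers are taken as names only. The count called in all 4 libraries fell to 134 with 5 kb flanks and was 211 to 224 over the remaining 3 with each library left out. The siChst7-only count of 1 became 2 with a −log10 q of at least 5 (1.21% of all regions), 5 with equal list lengths (1.96%), 2 with peaks of at least 200 bp (1.36%), 6 with 200 bp summit windows (1.54%), 2 with 50% overlap (1.19%) and 5 to 21 with each library left out (3.05% to 6.53%). The siControl-only count of 5 became 3 with the stricter q (2.70% of all regions), 3 with equal list lengths (2.05%), 8 with summit windows (3.10%) and 10 to 23 with each library left out (4.56% to 9.03%); fewer libraries have to agree in these last counts. Regions ranked higher with siChst7, 39, became 25 of 134 with 5 kb flanks and 24 of 145 with listed starts only. Those ranked higher with siControl, 46, became 35 of 134 and 32 of 145 under the same settings. With each library left out, 63 to 81 ranked higher with siChst7 (34% to 37.5% of all common regions). The reverse held for 70 to 88 (33.2% to 34.9%). Start peaks in all 4 libraries, 26, became 17 with listed starts only and 26 to 27 with each library left out. Counting either gene end for every member, also chosen after seeing the data, gave 28. Fewer genes and shorter windows account for the lower counts by construction; the cause of the other changes was not tested.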

Other observations

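Genes of the matrix that these enzymes cut were read in the same way. Of 20 substrate genes 9 had a start peak in all 4 libraries (45%, against 53.8% of all genes) and 7 in none. Of their 178 regions 101 were called in all 4 libraries (56.7%, against 62.0% of all regions), 2 were siChst7-only (1.12% against 1.24%) and 3 siControl-only (1.69% against 2.84%). Among those open in all 4, Thbs2, a matricellular thrombospondin, had start fold enrichments of 14.2, 14.6, 15 and 14.0 in library order (siControl 1 and 2, siChst7 1 and 2). Fbn1, the microfibril protein fibrillin, had 10.7, 11, 10.1 and 10.5, and Fn1, fibronectin, had 9.51, 10.3, 8.65 and 9.54. In fold enrichment the groups overlapped at Thbs2 and Fn1, and both siChst7 values were the lower ones at Fbn1, by little. The values of these genes were not turned into percentiles. Over all regions called in all 4 libraries the median fold enrichment was also lower with siChst7 (9.18 and 8.96) than with siControl (9.44 and 9.59). Vcan and Acan, the proteoglycans after which the versicanases and aggrecanases are called, had no start peak in any library. Dcn, a small leucine-rich proteoglycan, had a peak at a gene end in both siControl libraries (5.03 and 5.59) and in neither siChst7 library. These genes were picked out after their values were seen.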
